A study of Mus musculus with 9 samples.

Results

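The nuclear genes that copy, package and transcribe mitochondrial DNA (mtDNA), or keep its transcripts stable, were followed through 9 RNA-seq libraries of sorted tumor cells and astrocytes, beside the RNA made from mtDNA itself. The 10 genes, Tfam, Polg, Polg2, Twnk, Ssbp1, Polrmt, Tfb2m, Tfb1m, Lrpprc and Slirp, were chosen by name for their roles, with earlier results of these data known. All 10 were found among the 49315 gene IDs counted. SB28 is a mouse glioblastoma cell line (strain C57BL6). The astrocytes were primary neonatal cells of the strain C57BL6 (mito::mKate2), in which a red fluorescent protein, mKate2, labels mitochondria. Per the study's methods the astrocytes were first stained with the dye CellTrace Violet. Tumor cells and astrocytes were grown together without further treatment in medium with serum, N2 supplement, EGF and FGF, so the control tumor cells had met astrocytes too. Cells were then sorted into SB28 without mKate2 (mKate2-, 3 libraries), SB28 that had taken up mKate2-labelled mitochondria (mKate2+, 3 libraries) and astrocytes (3 libraries). Per the study's methods the 3 libraries of a group came from 3 separate co-cultures, all of the same SB28 line, so P values measure the spread between co-cultures of that line. Total counts per library ran from 24454561 to 39287841.

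Mitochondria hold many copies of a small circular genome that encodes proteins of the respiratory chain and the RNAs needed to translate them, while every protein that maintains or reads this genome is encoded in the nucleus. TFAM coats and compacts mtDNA into nucleoids and bends its promoters. POLRMT, the mitochondrial RNA polymerase, starts transcription with TFB2M, and the same transcripts prime replication by the polymerase POLG with its accessory subunit POLG2, the helicase TWNK and the single-strand binding protein SSBP1. TFB1M methylates the small ribosomal RNA, and LRPPRC with SLIRP binds and stabilizes mitochondrial mRNAs. Tumor cells and astrocytes both rely on this machinery, and the amount of TFAM is known to set how much mtDNA a cell keeps.

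Some features of the libraries bear on all that follows. In mKate2+ replicate 2, counts moved with coding length. Its log2 ratio to the mean of the other 5 SB28 libraries had a median of 0.42 over 962 genes with at most 500 coding bases and of -0.49 over 794 genes above 4000 bases. Of the 11854 genes tested between the SB28 groups, this library was the lowest of 6 for 47.3% and the highest for 21.01%. The 10 genes span coding lengths from 336 bases for Slirp to 4176 for Lrpprc, and values with and without this library are given where it matters.

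The astrocyte libraries carried their label's markers unevenly. Slc1a3, the glutamate transporter GLAST, stood at 195 ± 35.2 CPM (counts per 1e6 counts of the library, mean ± SD, n = 3) and Aldh1l1 at 141 ± 30.4 CPM, against at most 2.38 CPM of Slc1a3 in any SB28 library, whereas Gfap reached 8.83, 3.42 and 19.4 CPM, S100b stayed at or below 2.16 CPM and Gjb6 had 0 counts in all 9 libraries. The summed level of 12 astrocyte markers was 1091, 1053 and 1701 CPM in the astrocyte libraries and between 466 and 513 CPM in the SB28 libraries, where the gap junction gene Gja1 gave most of it. Olig1, a transcription factor of the oligodendrocyte lineage, stood at 541, 241 and 304 CPM in the astrocyte libraries, with Olig2 at 268, 159 and 155 CPM, while Sox10 of the same list of 8 was at or near 0. Astrocyte replicate 3 stood apart with 362 CPM of Aldoc, an astrocyte enzyme gene, against 55.6 and 33.8 CPM in the other astrocyte libraries. Microglia markers summed to 28.95 to 61.3 CPM over the 9 libraries, nearly all of it from Tmem119 (51.6 of 51.9 CPM in mKate2- cells and 31.5 of 33.7 CPM in astrocytes), while 7 of the 8 stayed below 1 CPM in each SB28 group and 6 in astrocytes. Neuron markers summed to 38.9 to 63.2 CPM over the 9 libraries, with the neuronal gene Rbfox3 at 0 in all. A list of 10 proliferation genes, led by Top2a, summed to 2312 ± 141 CPM in mKate2- cells, 2213 ± 276 CPM in mKate2+ cells and 785 ± 125 CPM in astrocytes. The part of cell identity and proliferation in the differences from astrocytes was not tested. In bulk libraries, more cells of a kind and more RNA per cell cannot be told apart.

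The 10 genes lie on 8 chromosomes. Tfam is at chr10:71225464-71238280 (minus strand) and Polrmt at chr10:79736123-79746581 (minus), Lrpprc at chr17:84705247-84790789 (minus) and Tfb1m at chr17:3519256-3557781 (minus), Polg at chr7:79446231-79466362 (minus), Polg2 at chr11:106768253-106779537 (minus), Twnk at chr19:45005663-45012762 (plus), Tfb2m at chr1:179528055-179546267 (minus), Slirp at chr12:87443896-87452206 (plus) and Ssbp1 at chr6:40471352-40484700 (plus), in GENCODE M21 on GRCm38. Promoters are shown because they are the sequence through which nuclear factors act on this set. NRF1 and GABP, a factor of the ETS family, are known regulators of nuclear genes for mitochondrial proteins. RefSeq windows on GRCm38.p6 from 250 bases before to 50 after a gene start were found for all 10 genes, 11 windows in all because Twnk has a pair of starts. They were searched on both strands for the NRF1 core GCGCATGC and the ETS core CCGGAAG, which share no overlap in these windows. The ETS core was found for 7 of 10 genes (70.0%), against 9.93% of 27025 genes with such a window and 20.0% of the 10100 tested genes that have one. The NRF1 core was found for 2 of 10 genes (20.0%), Polrmt and Tfb2m, against 3.05% of all genes and 6.02% of tested ones. A set of 4 windows is printed 5′ to 3′ in the direction of the gene, with the matched letters in capitals, spelled as the reverse complement (CTTCCGG for the ETS core) where the match is on the other strand. Tfam and Ssbp1 hold the ETS core at the same distance from the RefSeq start, Polrmt holds both cores, and Lrpprc holds neither.

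Tfam, chr10:71237995-71238294, minus strand: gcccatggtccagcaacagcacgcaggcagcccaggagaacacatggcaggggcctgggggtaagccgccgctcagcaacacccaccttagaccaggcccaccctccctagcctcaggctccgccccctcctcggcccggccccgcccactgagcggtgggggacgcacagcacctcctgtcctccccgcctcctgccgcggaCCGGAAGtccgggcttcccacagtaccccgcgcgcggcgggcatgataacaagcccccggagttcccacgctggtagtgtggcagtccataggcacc

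Ssbp1, chr6:40471218-40471517, plus strand: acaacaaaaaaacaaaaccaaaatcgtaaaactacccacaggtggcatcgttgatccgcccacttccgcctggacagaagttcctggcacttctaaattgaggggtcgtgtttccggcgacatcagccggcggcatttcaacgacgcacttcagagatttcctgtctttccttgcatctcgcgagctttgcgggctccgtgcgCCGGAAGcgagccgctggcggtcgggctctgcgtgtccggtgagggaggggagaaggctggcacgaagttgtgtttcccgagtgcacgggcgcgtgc

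Polrmt, chr10:79746532-79746831, minus strand: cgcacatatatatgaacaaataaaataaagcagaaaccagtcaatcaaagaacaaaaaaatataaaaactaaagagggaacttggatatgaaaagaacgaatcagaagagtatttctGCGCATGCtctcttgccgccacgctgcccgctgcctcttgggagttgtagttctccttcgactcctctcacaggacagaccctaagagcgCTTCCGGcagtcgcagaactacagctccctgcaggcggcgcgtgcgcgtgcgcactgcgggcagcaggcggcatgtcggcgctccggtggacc

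Lrpprc, chr17:84790737-84791036, minus strand: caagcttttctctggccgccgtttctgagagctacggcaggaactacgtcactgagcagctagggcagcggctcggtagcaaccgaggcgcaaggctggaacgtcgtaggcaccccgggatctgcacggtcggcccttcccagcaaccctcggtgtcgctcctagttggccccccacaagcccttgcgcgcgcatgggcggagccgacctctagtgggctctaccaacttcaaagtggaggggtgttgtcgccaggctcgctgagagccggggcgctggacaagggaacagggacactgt

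In Tfam and Ssbp1 the ETS core began 47 bases before the RefSeq gene start. In Polg it began 38 bases, in Polg2 29 bases and in Polrmt 43 bases before the start. Slirp held 3 matches, 146, 48 and 11 bases before its start, and the second Twnk start held 2, at 110 and 66 bases. The windows of Tfb1m and Lrpprc and the first Twnk start held neither core. All these distances are counted from RefSeq starts. For Tfam, Ssbp1, Polg and the second Twnk start, the RefSeq start and the matches lie inside the GENCODE gene span given above. A match describes the letters only. Binding was not measured.

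The 10 genes differed widely in level. Per kilobase of exon in GENCODE M21, mKate2- SB28 cells had most Lrpprc (17.4 ± 1.31 CPM per kb), then Twnk (14.1 ± 0.809) and Tfb2m (11.3 ± 0.717), and the libraries of these 3 neighbors did not overlap. Polg (6.71 ± 0.325), Polrmt (6.03 ± 0.559) and Tfam (5.45 ± 0.345 CPM per kb) followed, each overlapping the next. Slirp and Ssbp1, at 3.60 ± 1.05 and 3.58 ± 0.756 CPM per kb, could not be ordered. The methyltransferase gene Tfb1m (2.14 ± 0.286) and the polymerase subunit gene Polg2 (1.61 ± 0.0975 CPM per kb) were the lowest. The order in mKate2+ cells was the same apart from Slirp, which was 4th there with a wide spread (6.58 ± 4.47 CPM per kb). In astrocytes the first 4 were Tfb2m (9.94 ± 0.535), Lrpprc (9.49 ± 0.686), Twnk (8.40 ± 0.413) and Polrmt (7.51 ± 0.701 CPM per kb), each overlapping its neighbor. Exonic length counts every annotated exon, 8360 bases for Ssbp1 against 444 coding bases, and which exons these cells use was not tested. Of the exonic bases of Slirp, 97.8% lie under exons of the opposite strand, so its level per kb and its place in the order are uncertain.

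**Figure D1:**
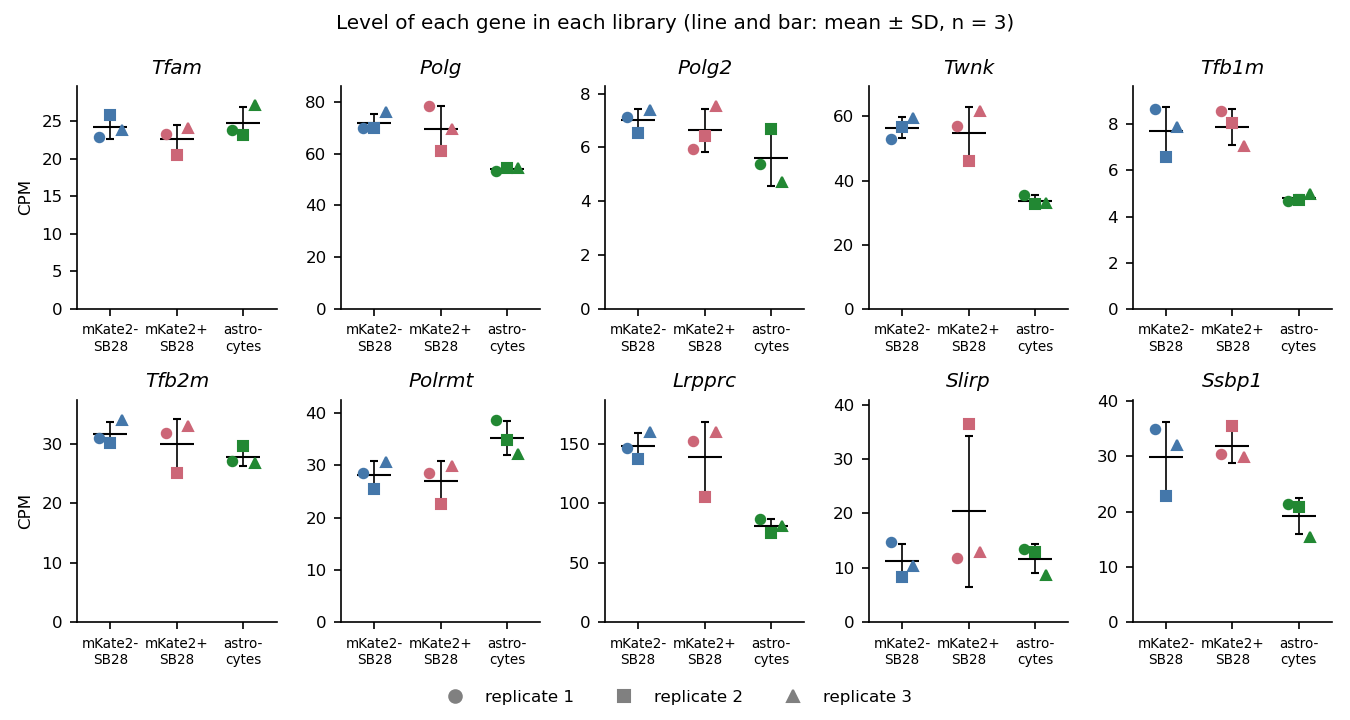
CPM of the 10 genes (vertical axes, each starting at 0) in the 3 libraries of mKate2- SB28, mKate2+ SB28 and astrocytes. Symbols give the replicate, and lines with bars give mean ± SD. Lrpprc, Twnk, Polg, Tfb1m and Ssbp1 lie higher in every SB28 library than in every astrocyte library, and the square of mKate2+ replicate 2 stands apart for Slirp at 36.4 CPM.

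The first comparison asked whether SB28 cells that had taken up astrocyte mitochondria differed in these genes from those that had not. None of the 10 passed the test (edgeR's quasi-likelihood test over 11854 genes, Benjamini-Hochberg adjusted P below 0.05), where 0% of all genes did, and 0 of 10 had an unadjusted P below 0.05, against 2.03% (241) of all genes. DESeq2 also called 0 of 10, with 0 of 10 at an unadjusted P below 0.05 and 317 of all genes. The libraries of the groups overlapped for each of the 10 genes.

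Tfam stood at 22.9, 25.9 and 23.9 CPM in mKate2- and at 23.3, 20.5 and 24.02 CPM in mKate2+ replicates 1, 2 and 3. The log2 fold change was -0.05 ± 0.09 (SE), with a 95% interval from -0.27 to 0.17. The replication genes overlapped in the same way. Polg, the catalytic subunit of the mtDNA polymerase, had 70.1, 70.0 and 76.1 CPM in mKate2- and 78.6, 61.0 and 69.6 CPM in mKate2+ libraries (log2 fold change -0.00027 ± 0.09, interval -0.21 to 0.21). Twnk, the helicase gene, had 53.1, 56.7 and 59.6 CPM against 57.0, 46.1 and 61.6 CPM (0.01 ± 0.10, interval -0.22 to 0.24). The lowest of the mKate2+ values for all 3 of these genes was that of replicate 2.

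Polg2 had 7.14, 6.55 and 7.37 CPM in mKate2- and 5.94, 6.44 and 7.52 CPM in mKate2+ libraries (-0.03 ± 0.15, interval -0.37 to 0.31). Ssbp1 had 35.0, 22.8 and 32.0 CPM against 30.3, 35.5 and 29.9 CPM (0.15 ± 0.17, interval -0.25 to 0.55). For Ssbp1, mKate2- replicate 2 lay below and mKate2+ replicate 2 above every other SB28 library.

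For the transcription genes the values were again shared between the groups. Polrmt had 28.6, 25.5 and 30.7 CPM in mKate2- and 28.6, 22.6 and 29.9 CPM in mKate2+ cells (-0.02 ± 0.11, interval -0.28 to 0.24). Tfb2m had 31.0, 30.2 and 34.0 CPM against 31.8, 25.1 and 33.1 CPM (-0.04 ± 0.10, interval -0.28 to 0.20). Tfb1m, the rRNA methyltransferase gene, had 8.64, 6.60 and 7.88 CPM against 8.57, 8.04 and 7.05 CPM (0.09 ± 0.16, interval -0.27 to 0.45).

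The genes of the mRNA-stabilizing pair moved apart in a single library. Lrpprc had 147, 137 and 159 CPM in mKate2- and 152, 105 and 160 CPM in mKate2+ libraries (-0.05 ± 0.13, interval -0.35 to 0.26). Slirp had 14.8, 8.41 and 10.4 CPM in mKate2- and 11.9, 36.4 and 12.96 CPM in mKate2+ libraries. Its log2 fold change of 0.96 ± 0.46 was the largest of the 10 and did not pass (adjusted P = 0.923, edgeR), and the interval ran from -0.12 to 2.03. Without mKate2+ replicate 2 it was 0.16 ± 0.21, and with the coding length trend removed 0.61. Its adjusted P over the 15 alternatives was 0.117 or higher.

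Slirp counts are uncertain for a further reason. Of its 3104 exonic bases, 97.8% lie under exons of the opposite strand, mostly those of Snw1, a splicing factor gene that overlaps it. Of 37 protein-coding genes wholly under opposite-strand exons, 33 had 0 counts in all 9 libraries, against 25.8% of 16554 genes with no such exon. How reads over the covered part of Slirp were counted was not tested. Snw1 stood at 48.0 CPM in mKate2+ replicate 2 and between 67.0 and 72.1 CPM in the other SB28 libraries, lower where Slirp was higher.

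Among the 10 genes, mKate2+ replicate 2 had the lowest value of the 6 SB28 libraries for 6, Tfam, Tfb2m, Twnk, Polrmt, Polg and Lrpprc, at 0.696 to 0.856 times the mean of the other 5. It had the highest for the 2 with the shortest coding sequences, Slirp at 3.12 times and Ssbp1 at 1.18 times that mean. These 6 and 2 of 10 are near the 47.3% and 21.01% of all genes, and the ratios did not follow coding length in order, since Tfb1m, with 1035 bases, stood at 1.04 times and the shorter Tfam at 0.856 times that mean. What set this library apart was not tested.

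**Figure D2:**
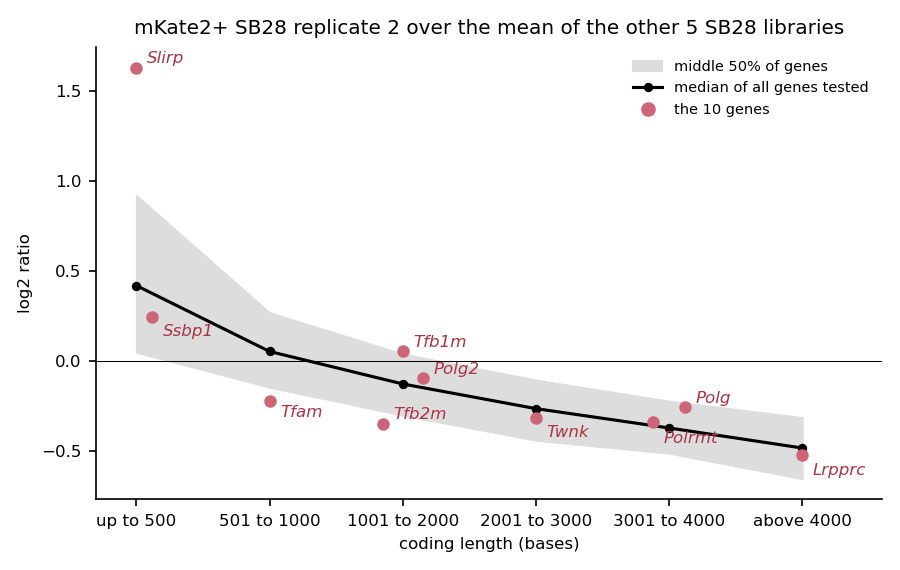
Log2 ratio of CPM in mKate2+ SB28 replicate 2 to the mean of the other 5 SB28 libraries (vertical axis) by class of coding length in bases (horizontal axis). The black line gives the median and the grey band the middle 50% of tested genes in each class, and red points are the 10 genes. The median falls from 0.42 to -0.49, and Slirp stands highest at 1.63.

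The other comparisons set each SB28 group against the astrocytes, and they share the 3 astrocyte libraries. In these, 5 of the 10 genes were higher than in astrocytes and 0 were lower, and both SB28 groups had the same 5, Polg, Twnk, Ssbp1, Tfb1m and Lrpprc. Most genes differ between these cell types. Of 13356 genes tested in mKate2- cells against astrocytes, 63.1% passed, 29.3% higher and 33.8% lower, and of 13342 tested in mKate2+ cells, 60.1% passed, 28.0% higher and 32.1% lower. So 5 of 10 passing is below the share of all genes, and 5 of 10 higher is above the share of all genes that were higher. None of the 10 passed with more than a 2-fold difference, as 33.9% and 35.0% of all genes did. The median log2 fold change of the 10 genes was 0.38 in mKate2- and 0.61 in mKate2+ cells, beside -0.04 and -0.02 for all genes tested. Without mKate2+ replicate 2 the median of the 10 genes in mKate2+ cells was 0.41.

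Lrpprc had the largest log2 fold change of the 5. Its astrocyte libraries had 86.6, 74.9 and 80.6 CPM, all below the 105 to 160 CPM of the SB28 libraries. The log2 fold change was 0.88 ± 0.11 in mKate2- (adjusted P = 0.000329) and 0.85 ± 0.16 in mKate2+ cells (adjusted P = 0.00285). Slirp, its partner, had 13.4, 12.99 and 8.65 CPM in astrocytes, within the range of the SB28 libraries, and did not pass (log2 fold change -0.05 ± 0.27 in mKate2- cells, and 0.91 ± 0.47 in mKate2+ cells with replicate 2, 0.13 ± 0.25 without it or 0.40 with the coding length trend removed).

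Among the replication genes, the helicase gene Twnk had 35.6, 32.6 and 32.9 CPM in astrocytes against 46.1 to 61.6 CPM in SB28 (log2 fold change 0.76 ± 0.11 in mKate2-, adjusted P = 0.000707, and 0.77 ± 0.14 in mKate2+, adjusted P = 0.00201). Polg had 53.2, 54.6 and 54.6 CPM in astrocytes and was higher in SB28 by 0.43 ± 0.09 and 0.44 ± 0.12 on the log2 scale (adjusted P = 0.00468 and 0.0133). Ssbp1 had 21.3, 20.9 and 15.5 CPM in astrocytes, below all SB28 libraries (0.65 ± 0.21 and 0.81 ± 0.18, adjusted P = 0.0249 and 0.00671). With the coding length trend removed, its log2 fold change in mKate2+ cells was 0.46 and still passed (adjusted P = 0.0120). Polg2 did not follow. Its astrocyte libraries had 5.40, 6.70 and 4.70 CPM and overlapped both SB28 groups (0.34 ± 0.22 and 0.32 ± 0.24, adjusted P = 0.201 and 0.269). In both comparisons 3 of these 4 genes passed, near the 63.1% and 60.1% of all genes that did.

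Neighboring genes overlap a part of these exons. Fanci covers 8.57% of the exonic bases of Polg and Mrpl43 12.6% of those of Twnk, both from the opposite strand. Fanci, a DNA repair gene, stood at 10.8 ± 3.30 CPM in astrocytes and 31.1 ± 2.88 CPM in mKate2- cells, which is the direction of Polg. Mrpl43 stood at 44.0 ± 7.45 CPM in astrocytes and 51.4 ± 2.01 CPM in mKate2- cells, and its libraries overlapped. The part of either overlap in the counts of Polg and Twnk was not tested.

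Neither gene that starts transcription of mtDNA passed. Polrmt had 38.6, 34.9 and 32.1 CPM in astrocytes, above each of the 6 SB28 libraries (22.6 to 30.7 CPM), but the difference missed the threshold, with log2 fold changes of -0.31 ± 0.14 in mKate2- (adjusted P = 0.0845) and -0.31 ± 0.15 in mKate2+ cells (adjusted P = 0.108). Removing the coding length trend brought the mKate2+ value to -0.13 (adjusted P = 0.524). Polrmt passed with upper-quartile normalization in both comparisons (-0.39 and -0.41, adjusted P = 0.0371 and 0.0482), and in mKate2- cells also without astrocyte replicate 3 (adjusted P = 0.0339) and among genes with at least 10 counts in every library (adjusted P = 0.0395), and its adjusted P over all alternatives ran from 0.0339 to 0.292 and from 0.0482 to 0.524. Tfb2m had 27.1, 29.6 and 26.9 CPM in astrocytes (0.20 ± 0.12 and 0.18 ± 0.14, adjusted P = 0.160 and 0.301). Of the Tfb2m windows of 150 bases, 35.9% also occur in the pseudogene Gm1818, which had at most 1.52 CPM in any library. Tfb1m, which acts on the ribosome, had 4.66, 4.71 and 4.98 CPM in astrocytes and was higher in all SB28 libraries (0.70 ± 0.20 and 0.80 ± 0.21, adjusted P = 0.0174 and 0.0117).

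Tfam was nearly level across all 9 libraries. Astrocytes had 23.8, 23.1 and 27.2 CPM, and the log2 fold changes were -0.01 ± 0.13 (interval -0.31 to 0.28) in mKate2- and -0.05 ± 0.13 (interval -0.37 to 0.26) in mKate2+ cells. Its log2 CPM had an SD of 0.0841 over the 9 libraries. Of 13450 genes compared, the 5 with the most similar profile were Ppp2r5c, Phtf1, Btbd9, Dhx40 and Mbtps1, taken among genes whose log2 CPM had at least 0.5 times the SD of Tfam. Their centered log2 CPM differed from that of Tfam by a root mean square of 0.0350 to 0.0574 over the 9 libraries.

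The calls rested on single libraries for some genes. Twnk and Lrpprc passed in both comparisons whichever library was left out. In mKate2- cells, Tfb1m and Ssbp1 did not pass without astrocyte replicate 2, mKate2- replicate 1 or mKate2- replicate 3, which left 3 of 10. Of all genes, 7508 of 13098, 7010 of 13291 and 6994 of 13300 passed in these fits, against 8425 of 13356 with every library. In mKate2+ cells, Polg and Tfb1m did not pass without mKate2+ replicate 1, which also left 3 of 10. Of all genes, 6774 of 13270 passed in that fit, against 8013 of 13342 with every library.

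**Figure D3:**
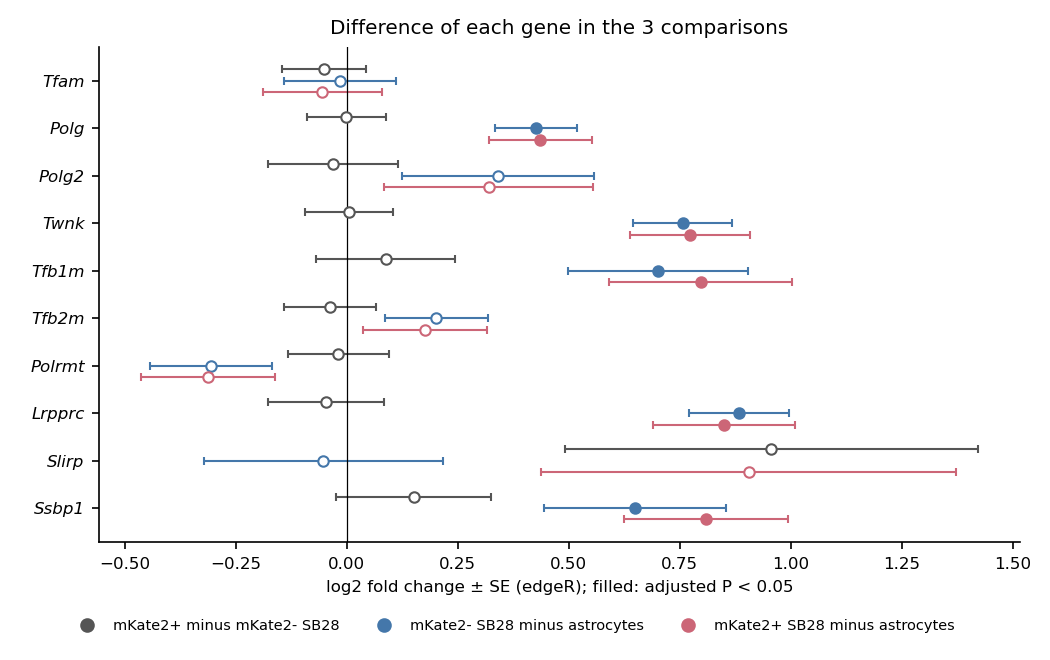
Log2 fold change ± SE from edgeR (horizontal axis) of the 10 genes in the 3 comparisons. Filled points had an adjusted P below 0.05. All grey points are open, with 9 of them between -0.05 and 0.15 and Slirp at 0.96, and Polg, Twnk, Tfb1m, Lrpprc and Ssbp1 are filled on the right for both SB28 groups.

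The presence of the ETS core did not split the genes by outcome. Of the 5 that were higher in SB28, Polg, Twnk and Ssbp1 held it and Tfb1m and Lrpprc did not, and of the 5 that did not pass, Tfam, Polg2, Polrmt and Slirp held it.

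A wider list of 63 other genes of mtDNA and RNA upkeep was read the same way. Between mKate2+ and mKate2- cells, 0 of 62 tested passed (edgeR), as 0% of all genes did. An unadjusted P below 0.05 was reached by 0 of 62, against 2.03% (241) of all genes. The log2 fold changes ran from -0.30 to 0.27 with a median of -0.00044. Against astrocytes, 35 of 63 were higher and 4 lower in mKate2- cells (median log2 fold change 0.49), and 32 were higher and 4 lower in mKate2+ cells (median 0.54), beside the 29.3% and 28.0% of all genes that were higher and the 33.8% and 32.1% that were lower. Of the 10 proliferation markers, 10 were higher in mKate2- and 9 in mKate2+ cells, and their part in these counts was not tested.

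In the replication and repair group, 11 of 15 genes were higher in mKate2- and 10 in mKate2+ cells and 0 were lower, beside 29.3% and 28.0% of all genes higher and 33.8% and 32.1% lower. Fen1, a flap nuclease shared with nuclear replication, had 5.72, 3.79 and 6.86 CPM in astrocytes and 20.9 to 27.4 CPM in SB28 libraries (log2 fold change 2.14 ± 0.24 in mKate2- and 2.22 ± 0.24 in mKate2+ cells), though 78.8% of its exonic bases lie under an antisense gene. Lig3, the DNA ligase of mitochondria, had 30.4, 34.8 and 41.2 CPM in astrocytes and 66.1 to 95.8 CPM in SB28 (1.39 ± 0.12 and 1.33 ± 0.17). Of its exonic bases, 25.1% lie under exons of Rffl on the opposite strand. All 6 SB28 libraries were above all 3 astrocyte libraries for both Fen1 and Lig3.

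Of 13 nucleotide supply genes, 5 were higher and 3 lower in each SB28 group, beside 29.3% and 28.0% of all genes higher and 33.8% and 32.1% lower. Rrm1 and Rrm2, the subunits of ribonucleotide reductase, which makes deoxynucleotides in dividing cells, were higher. The log2 fold change of Rrm1 was 1.26 ± 0.10 in mKate2- and 1.33 ± 0.12 in mKate2+ cells, and that of Rrm2 1.16 ± 0.15 and 1.21 ± 0.15. Slc25a4, the ADP/ATP carrier gene also known as Ant1, had 591, 544 and 486 CPM in astrocytes against 329 to 412 CPM in SB28, a log2 fold change of -0.61 ± 0.12 in mKate2- and -0.42 ± 0.15 in mKate2+ cells. Sucla2, a subunit of succinyl-CoA ligase an enzyme tied to mitochondrial nucleotide supply, was lower by -0.55 ± 0.13 and -0.47 ± 0.14. The SB28 and astrocyte libraries did not overlap for Slc25a4 or Sucla2, but in mKate2+ cells Slc25a4 did not pass without astrocyte replicate 1 or 2 or mKate2+ replicate 1 or 3 (log2 fold change -0.51 to -0.33 with a library left out), nor Sucla2 without any 1 of the mKate2+ libraries (-0.58 to -0.35).

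Of 6 elongation and termination factors, 2 were higher in mKate2- and 1 in mKate2+ cells, near the 29.3% and 28.0% of all genes that were higher. Tefm, the elongation factor of POLRMT, had 7.89, 11.7 and 7.20 CPM in astrocytes and 12.9 to 17.8 CPM in SB28 (0.83 ± 0.22 and 0.73 ± 0.22). Mterf1a, a termination factor with a near-identical copy in Mterf1b, so that its counts are uncertain, passed in mKate2- (0.70 ± 0.26, adjusted P = 0.0465) and not in mKate2+ cells (0.55 ± 0.25, adjusted P = 0.0893), and the difference between these was not tested. Mterf1a did not pass in mKate2- cells when any 1 of the 6 libraries was left out (0.53 to 0.81). Tefm did not pass in mKate2- cells without mKate2- replicate 1 (0.74), nor in mKate2+ cells without astrocyte replicate 1 or 3 or mKate2+ replicate 1 or 3 (0.57 to 0.95 with a library left out).

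RNA processing and decay had 13 of 19 genes higher in mKate2- and 12 in mKate2+ cells and 0 lower, beside the same shares of all genes. Trmt10c, a subunit of the enzyme that cuts tRNAs out of the long mitochondrial transcripts, had 13.7, 18.4 and 13.8 CPM in astrocytes and 30.3 to 40.6 CPM in SB28 (1.33 ± 0.16 and 1.24 ± 0.17). Tbrg4, or FASTKD4, an RNA-binding protein of the FASTK family, had 41.8, 33.6 and 32.9 CPM against 72.8 to 99.0 CPM (1.31 ± 0.15 and 1.32 ± 0.15). The direction was that of Lrpprc, and the groups did not overlap.

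**Figure D4:**
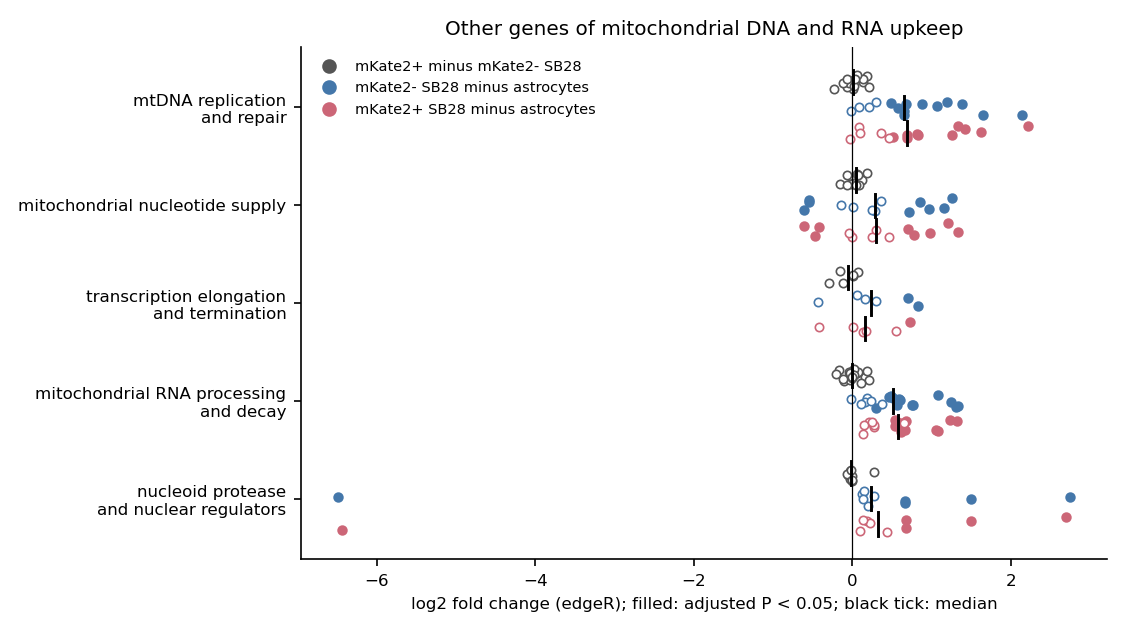
Log2 fold change from edgeR (horizontal axis) of 63 other genes in 5 groups for the 3 comparisons. Each point is a gene, filled where the adjusted P was below 0.05, and black ticks are group medians. Grey points lie within -0.30 and 0.27, most blue and red points lie to the right of 0, and Ppargc1a stands alone near -6.5.

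In the group of nuclear regulators with the nucleoid protease, 4 of 10 genes were higher, 1 was lower and 5 did not pass in each SB28 group, beside 29.3% and 28.0% of all genes higher and 33.8% and 32.1% lower. The protease genes Lonp1 and Clpx and the factor genes Esrra and Yy1 were among those that did not pass, with log2 fold changes of 0.10 to 0.44. Ppargc1a, which encodes the coactivator PGC-1α, had 21.3, 18.7 and 23.9 CPM in astrocytes and at most 0.416 CPM in any SB28 library, with 0 counts in mKate2+ replicate 2. Its fitted log2 fold change was -6.50 ± 0.35 in mKate2- and -6.44 ± 0.71 in mKate2+ cells, from very few SB28 counts. It was tested only because it exceeded 1 CPM in astrocytes, so it had to differ, and it is the 1 lower gene of the group. The related coactivator genes were higher in SB28. Ppargc1b, encoding PGC-1β, had 0.572, 1.80 and 1.94 CPM in astrocytes and 7.59 to 11.0 CPM in SB28 (2.75 ± 0.42 and 2.70 ± 0.44), and Pprc1, encoding PRC, had 41.4, 48.4 and 56.0 CPM against 80.8 to 163 CPM (1.503 ± 0.16 and 1.495 ± 0.24). Of the factors whose cores were searched in the promoters, Nrf1 was higher in SB28 (0.67 ± 0.13 and 0.67 ± 0.14), as was the GABP subunit gene Gabpb1 (0.67 ± 0.13 and 0.68 ± 0.14). Gabpa, encoding its DNA-binding subunit, did not pass (0.27 ± 0.14 and 0.23 ± 0.16, adjusted P = 0.118 and 0.245). Lonp1, Clpx, Esrra, Yy1, Nrf1, Gabpb1 and Gabpa fall outside the rule for named genes and were chosen after their values were seen.

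The output of mtDNA was read as the share of all counts that fell on its 13 mRNA genes. It was 0.998%, 0.839% and 1.23% in the mKate2- libraries, 1.37%, 0.552% and 1.51% in the mKate2+ libraries, and 1.76%, 2.91% and 3.13% in the astrocyte libraries. The astrocyte shares were all above the SB28 shares, and mKate2+ replicate 2 was the lowest of the 9. Counting error is small, with a 95% Wilson interval of 0.549% to 0.554% for that library, and intervals cover counting error only. The means were 1.02 ± 0.197%, 1.14 ± 0.518% and 2.60 ± 0.733% (SD, n = 3).

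The share in mKate2+ cells exceeded that in mKate2- cells by 0.12 percentage points (P = 0.8, exact two-sided permutation test), and the difference was 0.419 points without mKate2+ replicate 2 and -0.0597 points without mKate2+ replicate 3, so its direction rests on single libraries. Compared with astrocytes it was lower by 1.58 points in mKate2- and by 1.46 points in mKate2+ cells (a difference of -1.58 and -1.46, P = 0.1 each, exact permutation test). With 3 libraries against 3 this test cannot give a P below 0.1. The share was lower where 5 of the 10 maintenance genes were higher, and it is a share of mRNA-gene counts, not of mtDNA copies, which were not measured.

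Gene by gene, the 7 mt mRNAs counted in depth were all lower in mKate2- cells than in astrocytes, beside 33.8% of all genes, and 4 of these 7 were lower in mKate2+ cells, beside 32.1%. Of the 6 scarce ones, mt-Nd4l, mt-Co2 and mt-Atp6 were tested only against astrocytes, where they exceeded 1 CPM. mt-Nd3 and mt-Co3 lay near that limit in SB28. The counts against astrocytes therefore leave these genes out. Between mKate2+ and mKate2- cells 0 of 9 tested passed, with 0 at an unadjusted P below 0.05 (edgeR), and these 9 include mt-Nd3 and mt-Co3. By mean share of mt mRNA counts, the 3 most abundant in each group were mt-Co1, mt-Cytb and mt-Nd1. In astrocytes the third place rests on replicate 1. There mt-Nd1 made up 8.39 ± 1.37% and mt-Nd5 8.02 ± 3.44%, and mt-Nd5 was above mt-Nd1 in replicates 2 and 3. For mt-Co1, the catalytic subunit of cytochrome c oxidase, astrocytes had 10099, 15619 and 17468 CPM and SB28 libraries 2950 to 8114 CPM (log2 fold change -1.34 ± 0.23 and -1.12 ± 0.38). It made up 55.1 ± 2.14% of the mt mRNA counts in mKate2- cells and 55.6 ± 1.81% in astrocytes. For mt-Cytb the log2 fold changes were -1.47 ± 0.24 and -1.21 ± 0.33. For mt-Nd1, a subunit of complex I, astrocytes had 1759, 2260 and 2331 CPM and SB28 libraries 823 to 1880 CPM (-0.87 ± 0.20 and -0.49 ± 0.28, adjusted P = 0.00638 and 0.165, edgeR), so it passed in mKate2- cells and overlapped in mKate2+ cells. For mt-Nd5, which falls outside the rule for named genes and was chosen after its values were seen, the log2 fold changes were -1.50 ± 0.48 and -1.62 ± 0.61, the second with an adjusted P of 0.0515, and astrocyte replicate 1, at 717 CPM, stood far below the 2819 and 3222 CPM of the other astrocyte libraries. mt-Nd6, the mRNA encoded on the other strand from the remaining 12, had the largest difference among the abundant ones, from 385, 511 and 581 CPM in astrocytes to 82.9 to 167 CPM in SB28 (-1.91 ± 0.18 and -1.88 ± 0.26). The strand setting of the counts is not given, so whether the reads counted for mt-Nd6 came from its own strand was not tested.

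Only 7 of the 13 mt mRNAs were counted in depth, each above 82 CPM in every library. The other 6, mt-Nd3, mt-Nd4l, mt-Co2, mt-Co3, mt-Atp6 and mt-Atp8, stayed at or below 3.67 CPM in all 9. Of the 150-base windows of 5 of these, all but mt-Atp8, between 97.0% and 99.8% also occur in nuclear pseudogenes, so reads from those windows have no unique place. Restricted to 6 well-counted mRNAs, without mt-Nd4, of whose windows 59.15% occur in a pseudogene, but with mt-Co1, of whose windows 23.64% do, the share was 0.967 ± 0.184% in mKate2-, 1.09 ± 0.487% in mKate2+ and 2.45 ± 0.696% in astrocyte libraries. Mitochondrial rRNAs were not analysed here.

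**Figure D5:**
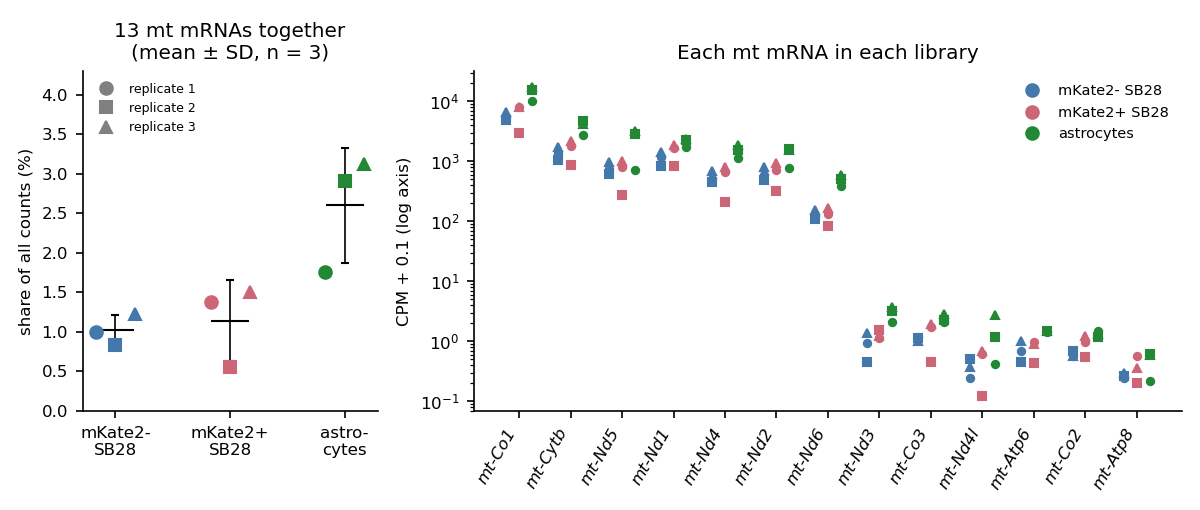
Left, share of all counts on the 13 mt mRNA genes in each library (vertical axis in percent, starting at 0; lines with bars are mean ± SD). Right, CPM + 0.1 of each mt mRNA in each library on a log axis. Astrocyte libraries lie above the SB28 libraries in the left panel (1.76% to 3.13% against 0.552% to 1.51%), and the right panel shows 7 mRNAs above 82 CPM and 6 at or below 3.67 CPM.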

How the data were processed

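Messenger RNA of sorted SB28 cells and astrocytes was measured by paired-end RNA-seq. The deposited values are raw counts per gene from the authors, not normalized. Per the labels and the study's methods, adapters were trimmed (Trimmomatic 0.36), reads mapped to GRCm38 with STAR 2.5.2b and unique hits counted with featureCounts (Subread 1.5.2). The annotation release and strand setting are not given in the sources used here. GENCODE M21 named 49056 of 49315 IDs.

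Libraries were taken by their labelled names, since the sort gates in the labels assign a dye differently from the study's methods. Each comparison used the 6 libraries of its groups, TMM normalization, genes above 1 CPM in at least 2 libraries, and edgeR 4.0.16's quasi-likelihood test (R 4.3.3) with Benjamini-Hochberg adjustment at 0.05. Standard errors are the log2 fold change divided by the square root of F. Shares were compared by exact permutation test (scipy 1.17.1). Total counts per library were 24454561 to 39287841. Taken as whole libraries, replicates differed by more than sampling noise in every group. This does not hold for each gene. Tfb1m in astrocytes had 114, 154 and 175 counts and a narrow spread (4.78 ± 0.172 CPM), so counting error was not small beside it.

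The members and lists were chosen with earlier results of these data known. Named genes are the 10, the 3 mt mRNAs with the largest share of mt mRNA counts and mt-Nd6, the 2 smallest adjusted P values per direction and subgroup of the wider list in mKate2- cells against astrocytes, and the 5 profiles nearest to Tfam. Alternatives were DESeq2 1.42.0, RLE and upper-quartile factors, no filter, at least 10 counts in every library, all 9 libraries in 1 fit, a replicate block, exonic or coding length trends removed (loess, span 0.3) and each library left out. The coding length trend and the share over 6 mt mRNAs were added after seeing the data. The procedures were tested on simulated data.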

Additional observations from a re-analysis of the deposited data

How the results depend on the processing

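Between mKate2+ and mKate2- cells, 0 of the 10 genes and 0 of the wider list passed under all 15 alternatives. With log2 fold changes this near 0, directions turned with no call: Polg with DESeq2 (0.0016), RLE factors (0.0016), no filter (0.0085), at least 10 counts (0.00020), all 9 libraries in 1 fit (0.014) and the exonic (0.097) or coding length trend removed (0.11); Twnk with upper-quartile factors (-0.0015); Polrmt (0.087), Lrpprc (0.071) and Ssbp1 (-0.019) with the coding length trend removed; and Lrpprc with the exonic one (0.017). With a library left out, the log2 fold change ranged from -0.0905 to 0.0033 for Tfam, -0.0708 to 0.0446 for Polg, -0.12 to 0.0628 for Polg2, -0.0782 to 0.0742 for Twnk, -0.011 to 0.18 for Tfb1m, -0.11 to 0.0351 for Tfb2m, -0.0905 to 0.0541 for Polrmt, -0.15 to 0.0817 for Lrpprc, -0.0101 to 0.28 for Ssbp1 and 0.16 to 1.25 for Slirp, and the difference in mt mRNA share from -0.0597 points (without mKate2+ replicate 3) to 0.419. Against astrocytes, 5 to 6 of the 10 genes passed under the other settings, the sixth being Polrmt, and 3 to 6 in mKate2- and 3 to 5 in mKate2+ cells with a library left out. Tfam turned without the filter (0.0402 in mKate2-, 0.0055 in mKate2+ cells) and ranged from -0.0824 to 0.0488 in mKate2- cells with a library left out, and Slirp from -0.30 to 0.12. The wider list had 30 to 41 and 24 to 44 passing genes, against 39 and 36. The number of all genes passing moved too. In mKate2- cells it was 6994 of 13300 at the setting with 30, and 8122 of 12347 and 8727 of 13147 at those with 41. In mKate2+ cells it was 6573 of 13275 at the setting with 24 and 8919 of 13450 at that with 44. In mKate2+ cells Slc25a4 and Sucla2 did not pass without the filter, nor Tefm with the exonic length trend removed, nor in mKate2- cells Mterf1a with upper-quartile factors or without the filter. Upper-quartile factors moved the median of all genes from -0.04 to -0.12 and from -0.02 to -0.12. Without the filter the medians were -0.21 in mKate2- and -0.19 in mKate2+ cells, over 26862 and 27135 genes. The cause of these shifts was not tested.

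The methods state that the sorted groups came from 3 co-cultures, but no source used here says that a replicate number marks a co-culture. The correlation of same-numbered deviations was -0.0037, 0.136 and 0.170 between the SB28 groups and was not above 0.1 for every pair in any comparison, nor did every library correlate best with its own number, so pairing was not assumed. With the replicate block, 0, 5 and 5 of the 10 genes passed, as without it, and 38 and 33 of the wider list. Fastk and Mterf1a were lost and Hsd17b10 gained in mKate2- cells, and Fastkd3, Slc25a4 and Top3a were lost in mKate2+ cells. For the mt mRNA share, pairing leaves the difference the same by construction (0.122, -1.58 and -1.46 points), and P was 0.75, 0.25 and 0.25 (exact sign-flip permutation test, smallest possible 0.25).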
